A study of Mus musculus with 3 samples.

Results

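Retinoic acid is made from vitamin A inside cells and acts on genes through nuclear receptors. Retinol enters some cells through the membrane receptor STRA6, retinaldehyde dehydrogenases such as ALDH1A1 and ALDH1A2 oxidise retinaldehyde to retinoic acid, and enzymes of the CYP26 family, CYP26B1 among them, break it down. In the cytosol retinoic acid is carried by the small binding proteins CRABP1 and CRABP2. CRABP2 is known to hand it to the nuclear receptors RARα, RARβ and RARγ, which bind DNA as partners of the RXR receptors, whereas CRABP1 is known to hold it in the cytosol and to favour its breakdown. In adult dorsal root ganglion neurons, retinoic acid acting through RARβ is known to promote neurite outgrowth. The 9 genes described here are Crabp1, Crabp2, Rara, Rarb, Rarg, Aldh1a1, Aldh1a2, Cyp26b1 and Stra6, out of 30142 genes named by a probe set with a single symbol. Crabp1 and Crabp2 were chosen because they were lower in the array with blocking IgG, so their values are given as a description; the other 7 were listed because they belong to the same pathway.

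RNA came from primary dorsal root ganglion neurons of male ICR mice aged 8 to 10 weeks, cultured for 72 hours in DMEM with B27 supplement, and was measured on 3 expression arrays. The first medium held recombinant SEMA3E at 1 µg/ml, a secreted guidance protein of the semaphorin family, together with a SEMA3E-blocking IgG at 1 µg/ml. The second held SEMA3E at 1 µg/ml alone, and the control medium held neither. ICR is an outbred strain, the labels do not say how many mice gave the cells, and no array with IgG in the absence of SEMA3E was used. Each medium has 1 array, so no difference below has a test, an error or a replicate check, and precision is limited by having 3 arrays in all.

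The values are intensities summarised per probe set by the authors, used here as log2(intensity + 1), and a difference is a log2 difference between a pair of arrays. Each array held 65956 probe sets with a median between 44.5 and 45.0 units. A background floor of 43.7 units (5.48 on the log2 scale) was set from vomeronasal receptor genes, which are taken to be silent in this tissue, and 17653 genes had a mean at or above it. In 74.9% of those genes the 3 arrays held an identical value. So many exactly equal values are unusual for separate hybridisations, and as no source names the summary or normalization used by the authors, whether that processing made them equal was not tested. An identical value below, for a receptor, an enzyme or a marker, therefore does not show equal RNA. The labelled cells were checked against markers: 14 of 14 measured sensory neuron markers lay above the floor, among them Uchl1, a neuronal ubiquitin hydrolase, and Nefl, a neurofilament subunit.

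Of the 9 genes, 6 lay at or above the floor: Crabp1, Crabp2, Rara, Rarb, Rarg and Cyp26b1. The remaining 3, Aldh1a1, Aldh1a2 and Stra6, lay below it. All 9 were read by 1 probe set each.

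Promoter sequences were searched for known retinoic acid elements. RAR and RXR bind pairs of half-sites, here the consensus word AGGTCA with its common variant AGTTCA, and the related word GGGTCA with its own variant GGTTCA, repeated in the same direction with a spacer, and a spacer of 5 bases (DR5) is the classical retinoic acid response element. The 250 bases before each RefSeq start (build GRCm38.p6) were searched on both strands. Sequence windows were found for 8 of the 9 genes, all but Crabp2, and Rarb was the 1 gene of these 8 with a DR5 match. Over all 32851 windows 0.0883% hold a DR5 match, and 38.6% hold at least 1 half-site. Rarb is shown because it holds the element, and Crabp1 because it is the binding protein gene that has a window; Rara and Rarg have no DR5 match either. In the Rarb window (chr14:16575477-16575726, minus strand) capitals mark the 2 half-sites of the DR5 match, which lie between positions -53 and -37 from the start. Another half-site of the Rarb window, upstream of these, is not part of that match and is left in lower case. In the Crabp1 window (chr9:54764498-54764747, plus strand) there was no half-site, and capitals mark the word GGGCGG or its reverse complement, the core of the GC box read by Sp1. It occurs 5 times, and 32.7% of all windows hold it at least once. How many windows hold it 5 times was not counted. A window of Rara holds it 4 times, so the word is not particular to Crabp1.
Rarb: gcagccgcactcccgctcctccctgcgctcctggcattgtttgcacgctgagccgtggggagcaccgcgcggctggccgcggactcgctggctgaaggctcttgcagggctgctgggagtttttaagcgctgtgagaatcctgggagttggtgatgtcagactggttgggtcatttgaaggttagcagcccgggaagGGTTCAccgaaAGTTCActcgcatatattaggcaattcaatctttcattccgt
Crabp1: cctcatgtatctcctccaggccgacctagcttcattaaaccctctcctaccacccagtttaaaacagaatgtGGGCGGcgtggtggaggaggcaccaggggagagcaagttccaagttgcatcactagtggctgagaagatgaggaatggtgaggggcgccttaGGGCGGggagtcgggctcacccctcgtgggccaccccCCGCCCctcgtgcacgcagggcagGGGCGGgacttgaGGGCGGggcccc
These matches are letters in a window, and say nothing about whether a receptor was bound there in these cells.

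The question asked of the blocking antibody was what it alters in the presence of SEMA3E. Both binding protein genes were lower with it, which is how they were chosen, and none of the 7 remaining genes differed. Crabp1 (probe set TC0900000662.mm.1) had 13764 units with SEMA3E and blocking IgG, 17002 units with SEMA3E alone and 18439 units in control medium. On the log2 scale its levels were 13.75, 14.05 and 14.17 in that order. Crabp2 (probe set TC0300000710.mm.1) had 1488 units with SEMA3E and blocking IgG, 2147 units with SEMA3E alone and 2388 units in control medium, or 10.54, 11.07 and 11.22 on the log2 scale. Both genes were thus lowest in the array with the antibody and highest in control medium, with SEMA3E alone between them and nearer to control. In a culture of mixed cells, fewer cells that express a gene and less of its RNA per cell cannot be told apart.

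**Figure D1:**
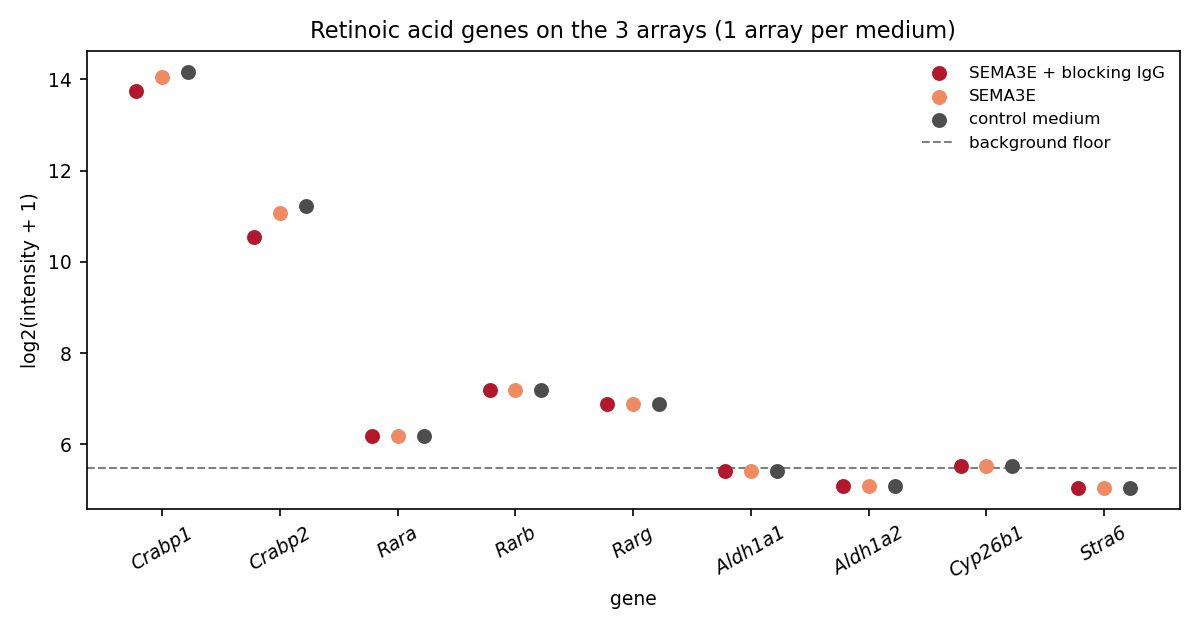
Levels of the 9 genes as log2(intensity + 1), with 1 point per array (1 array per medium) and the background floor of 5.48 as a dashed line. Crabp1 and Crabp2 step down from control medium through SEMA3E to SEMA3E with blocking IgG, while the other 7 genes have 3 points at the same height.

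Between SEMA3E with blocking IgG and SEMA3E alone, the log2 difference was -0.53 for Crabp2 and -0.30 for Crabp1. The level with the antibody was thus 69.3% of that with SEMA3E alone for Crabp2 and 81.0% for Crabp1. Among all genes above the floor 15 were lower still than Crabp2 and 64 lower still than Crabp1 in this comparison. A difference of at least 1.2-fold (0.26 on the log2 scale) in the lower direction was found in 2 of the 6 genes of the set above the floor. It was found in 0.566% of all genes above the floor and in 0.748% of the brightest sixth of them, where both lie. Any lower value was found in 10.3% of all genes above the floor. Because Crabp1 and Crabp2 were picked for being lower with blocking IgG, nothing follows from the count.

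SEMA3E with blocking IgG against control medium gave the widest gaps. Crabp2 stood at 62.3% of its control level (log2 difference -0.68) and Crabp1 at 74.6% (-0.42). At least 1.2-fold lower were 2 of the 6 genes, against 0.844% of all genes and 1.94% of the brightest sixth of genes, where both lie. At least 1.5-fold lower was 1 of the 6, Crabp2, against 0.142% of all genes. The array with IgG, on which the choice rests, is part of this comparison too, so it is a description as well. Of all genes above the floor 14 were lower still than Crabp2 and 53 lower still than Crabp1.

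SEMA3E alone against control medium does not include the array with IgG, on which the choice rests. Either of its arrays may have been the reference for that choice, which is not stated. Crabp2 was at 89.9% of control (log2 difference -0.15) and Crabp1 at 92.2% (-0.12). Neither reached 1.2-fold, which 0.680% of all genes did in the lower direction. Any lower value was found in 2 of the 6 genes, Crabp1 and Crabp2, and in 12.3% of all genes. Among the brightest sixth of genes, where both lie, 49.2% differed between any 2 arrays. As these 2 genes were picked from the same arrays, nothing follows from the count. In this comparison 363 genes were lower still than Crabp2 and 510 lower still than Crabp1.

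The order control above SEMA3E above SEMA3E with blocking IgG was shared by 378 genes, 2.14% of those above the floor, and the reverse order by 118 genes (0.668%). Among the brightest sixth of genes, to which Crabp1 and Crabp2 belong, 6.86% had the downward order. Together with a value at least 1.2-fold lower with the antibody than in either of the remaining arrays, it was found in 28 genes (0.159%), with Crabp1 and Crabp2 among them. That requirement repeats the drop on which Crabp1 and Crabp2 were picked, so nothing follows from their place among the 28.

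The receptor genes showed no difference on these arrays. Rara, which encodes the broadly expressed RARα, read 72.2 units in each of the 3 arrays (6.19 on the log2 scale). Rarb, the RARβ gene whose promoter carries the DR5 element printed above, read 145 units in each (7.19). Rarg, which encodes RARγ, read 117 units in each (6.88). Rara lay 0.71 above the floor on the log2 scale, Rarb 1.70 and Rarg 1.39, so all 3 were dim.

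The enzyme and uptake genes lay close to the floor or below it. Cyp26b1, a hydroxylase that clears retinoic acid, had 45.2 units in every array, 0.05 above the floor on the log2 scale. Aldh1a1 had 41.8 units in every array and Aldh1a2, the main retinaldehyde dehydrogenase of the embryo, had 33.0. Aldh1a1 is closely related to Aldh1a7, so its probes may read both, and Aldh1a7 itself had 44.6 units in every array. Stra6, the uptake receptor, had 32.2 units in every array. For the 3 genes below the floor no level above background was measured in any medium, and no fold is given.

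How often a gene differed depended on how bright its probe set was. In the dimmest sixth of genes above the floor, which holds Cyp26b1, 83.7% had identical values in all 3 arrays. In the second sixth, with Rara and Rarg, 83.9% did, and in the third, with Rarb, 83.2%. In the brightest sixth, with Crabp1 and Crabp2, 50.8% did. Identical values in the 4 dim genes are thus the usual outcome at their brightness, and some difference in the 2 bright ones was about as frequent as none.

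**Figure D2:**
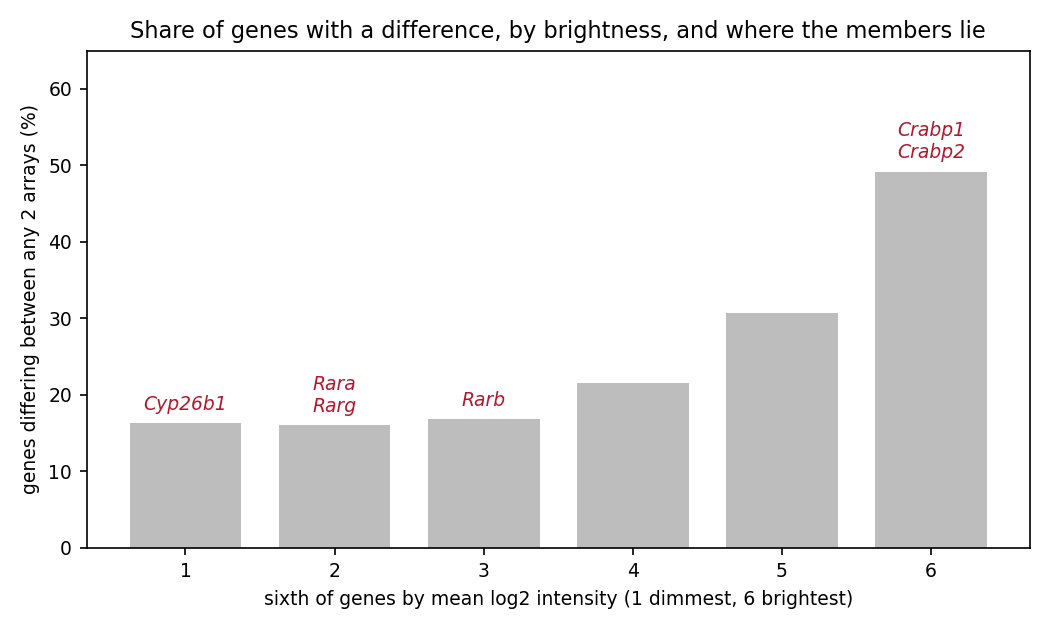
Bars give the percentage of genes above the floor whose value differed between any 2 arrays, in 6 groups of increasing mean log2 intensity. The members are written above the group they lie in: the 4 that were identical lie in groups where 16.1% to 16.8% of genes differed, and Crabp1 and Crabp2 in the group where 49.2% did.

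The wider retinoid pathway was read from lists of 79 other genes, of which 68 were measured and 50 lay at or above the floor. Of these 50, 38 were identical in all 3 arrays and 12 differed somewhere (24.0%, against 25.1% of all genes). With blocking IgG against SEMA3E alone, 6 were lower and 3 higher, against 10.3% lower and 10.2% higher of all genes. With blocking IgG against control, 7 were lower and 2 higher, against 11.4% and 7.59%. With SEMA3E against control, 6 were lower and 3 higher, against 12.3% and 6.21%. The median difference was 0.00 in each comparison, as it was over all genes. At least 1.2-fold, in any comparison, was reached by 1 of the 50, Rbp4.

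Among other lipid carriers, 2 of 5 above the floor were lower with blocking IgG than with SEMA3E alone and 1 was higher. The shares over all genes were 10.3% lower and 10.2% higher. Fabp5, which encodes a fatty acid binding protein that can also carry retinoic acid, to PPARδ, had 10989 units with SEMA3E and blocking IgG and 12875 in both the SEMA3E and control arrays. Its log2 difference was -0.23 in both comparisons of the antibody, so it differed in the IgG array only. Rbp4, the retinol carrier of the blood, had 120 units with SEMA3E and blocking IgG, 131 with SEMA3E and 147 in control medium. It had the stepwise order of Crabp1 and Crabp2, with log2 differences of -0.12 against SEMA3E, -0.29 against control, and -0.17 for SEMA3E against control.

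Of 14 enzymes of retinol and retinaldehyde turnover above the floor, 2 were lower and 1 higher with blocking IgG than with SEMA3E alone. Of all genes, 10.3% were lower and 10.2% higher in that comparison. Dhrs3, which reduces retinaldehyde back to retinol and is itself induced by retinoic acid, had 1695 units both with SEMA3E and blocking IgG and with SEMA3E, against 1926 in control medium (log2 difference -0.18 for each). Adh5, a broadly expressed alcohol dehydrogenase, had 657 units with SEMA3E and blocking IgG, 662 with SEMA3E and 657 in control medium. Adh7, a retinol-oxidising alcohol dehydrogenase named here after its values were seen, had 479 units with SEMA3E and blocking IgG and 416 in both the SEMA3E and control arrays. It was the enzyme furthest above SEMA3E alone in the list (0.20), the opposite direction to the binding proteins. Dhrs4, another retinal reductase named after its values were seen, was highest with SEMA3E, at 460 units, with 426 in both the blocking IgG and control arrays.

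Aldh1a3, the remaining retinaldehyde dehydrogenase, read 72.2 units in every array. Cyp26a1, a retinoic acid hydroxylase known for its induction by retinoic acid and named here after its values were seen, lay below the floor at 38.6 units in every array. Its promoter holds the only other DR5 match among the 64 retinoid genes with a window (chr19:37697756-37697807, plus strand), between positions -32 and -16. It is shown, with both half-sites in capitals, as the pair to the Rarb element, and lies on the opposite strand, so that each half-site reads TGAACT.
Cyp26a1: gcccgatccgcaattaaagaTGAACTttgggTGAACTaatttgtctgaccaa

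Identical values in partner receptors, uptake genes and cofactors stand beside 74.9% of all genes above the floor, and 83.2% to 83.9% in the 3 dimmest sixths. All 3 RXR genes were identical in the 3 arrays, with Rxrb at 77.4 units and Rxrg at 63.4. Scarb1, a lipoprotein and carotenoid receptor, read 487 units and Lrp2, an endocytic receptor that takes up retinol carriers, 139 units in each array. Of 10 receptor cofactors 8 were identical. Ncoa1, a coactivator of nuclear receptors, read 1583 units in each array. Crebbp, an acetyltransferase, had 3481 units with SEMA3E and blocking IgG and 3415 in the SEMA3E and control arrays (log2 difference 0.03).

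Of 14 genes known from other systems to respond to retinoic acid, 12 were identical in all 3 arrays, against 74.9% of all genes, and nothing particular to them is read from that count. Rarres1, a carboxypeptidase inhibitor homologue induced by retinoids in human skin, had 1721 units with SEMA3E and blocking IgG, 1854 with SEMA3E and 1764 in control medium. It was therefore highest with SEMA3E alone, by a log2 difference of 0.07 over control. Plin2, a lipid droplet coat protein, had 7523 units with SEMA3E and blocking IgG, 7692 with SEMA3E and 7761 in control medium, a log2 difference of -0.05 with the antibody against control. Plin2 and Rbp4 were the 2 other pathway genes, of 50 above the floor, with the stepwise order, against 2.14% of all genes.

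**Figure D3:**
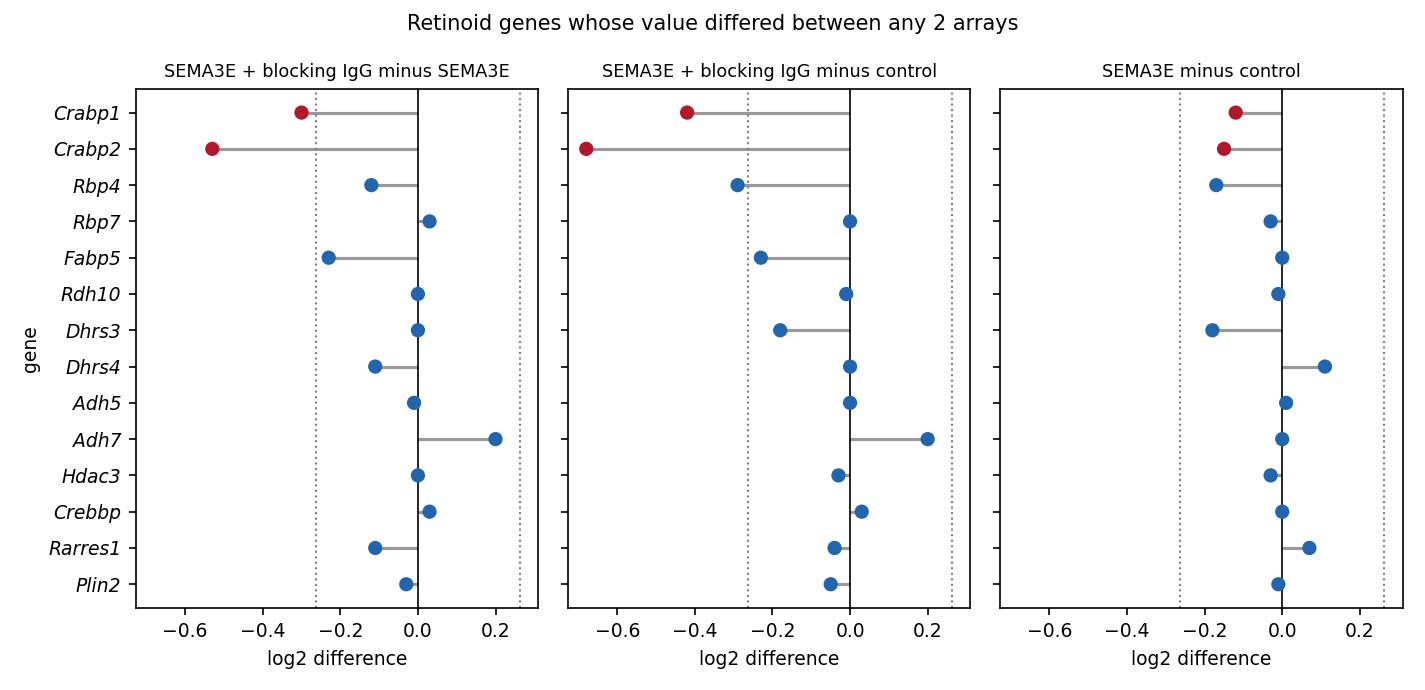
Log2 differences in the 3 comparisons for the 14 retinoid genes above the floor that differed between any 2 arrays, Crabp1 and Crabp2 in red and the other pathway genes in blue; dotted lines mark 1.2-fold. Crabp2 and Crabp1 lie furthest to the left in both comparisons of the antibody, Rbp4 passes 1.2-fold once, and in SEMA3E against control no gene does.

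The genes nearest in pattern to the binding proteins were sought among 98 genes whose 3 log2 values spanned at least 0.3, by the distance between the 3 values after each gene was centred on its mean. Of those 98 genes 55 (56.1%) had the stepwise downward order, so that order was common among them. The 5 nearest to Crabp1 were Gal, Mpzl1, Gadd45g, Gpr151 and Abca1. Gal, the gene of the neuropeptide galanin, was nearly the same at a distance of 0.004, with 71213 units with SEMA3E and blocking IgG, 87819 with SEMA3E and 95063 in control medium. Its level with the antibody was 81.1% of that with SEMA3E alone, where that of Crabp1 was 81.0%. Gpr151, an orphan receptor of sensory neurons, had 17680 units with SEMA3E and blocking IgG, 22076 with SEMA3E and 23060 in control medium (distance 0.039). Mpzl1, a membrane glycoprotein, was at 0.036, the stress-responsive gene Gadd45g at 0.037, and the cholesterol exporter gene Abca1 at 0.053.

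The 5 nearest to Crabp2 were Speer4e, Cdh1, Speer4c, Kcnj10 and Olfml1, at distances between 0.119 and 0.173. Cdh1, which encodes E-cadherin, had 832 units with SEMA3E and blocking IgG, 1062 with SEMA3E and 1184 in control medium. Speer4e and Speer4c have near-identical relatives that their probes may also detect, and Speer4e differed only in the IgG array, with 239 units there and 350 in the SEMA3E and control arrays. Olfml1, an olfactomedin-like gene, had 116 units with SEMA3E and blocking IgG, 141 with SEMA3E and 171 in control medium. Crabp1 itself was the gene ranked 7 in nearness to Crabp2, at 0.199, and Crabp2 ranked 42 in nearness to Crabp1; Crabp2 has the wider step between SEMA3E and the antibody. Each distance rests on 3 arrays and is a description.

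**Figure D4:**
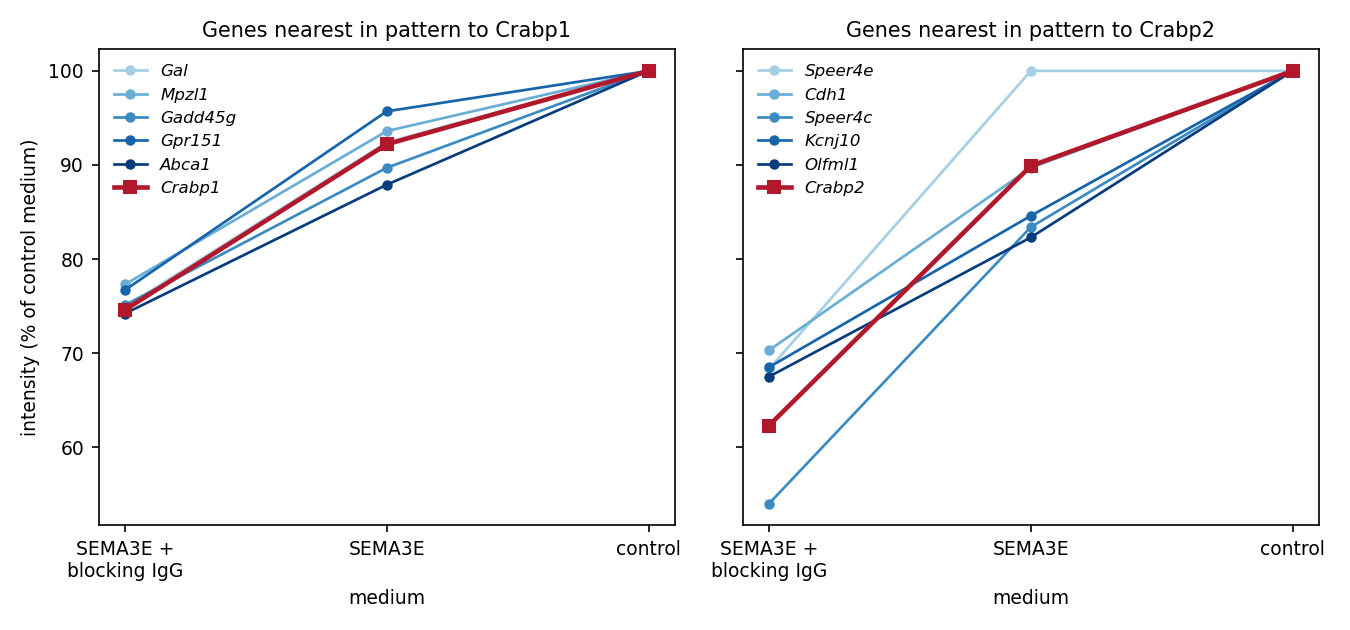
Intensity as a percentage of control medium in the 3 media for Crabp1 (left, red) and Crabp2 (right, red), each with the 5 genes nearest in pattern (blue). All of them were lowest with SEMA3E and blocking IgG; Gal lies on Crabp1, and Speer4e on the right has no step between SEMA3E and control.

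Markers of cell types that the cultures could hold were set beside Crabp1 and Crabp2, whose summed intensity with SEMA3E and blocking IgG was 73.2% of control and with SEMA3E 91.9%. The summed intensity of 14 sensory neuron markers was 98.5% of control with SEMA3E and blocking IgG and 98.3% with SEMA3E. Uchl1 read 205992 units in every array, and Tubb3, the neuronal tubulin, was furthest apart, with 11305 units in both SEMA3E arrays and 12589 in control medium. Uchl1 and Nefl made up most of the neuron sum (400598 units in control medium), so it says little of the dimmer markers. With SEMA3E against control, 8 of the 14 were lower and 0 higher, where 12.3% and 6.21% of all genes were. With blocking IgG against control, 6 were lower and 0 higher (11.4% and 7.59% of all genes). With blocking IgG against SEMA3E alone, 0 were lower and 4 higher (10.3% and 10.2%). None reached 1.2-fold in any comparison. Most of the 14 lay in the brightest sixth of genes, where 49.2% differed between any 2 arrays. The sum of 10 satellite glial markers was 94.5% of control with SEMA3E and blocking IgG and 97.6% with SEMA3E. With blocking IgG against SEMA3E alone, 1 of the 10 was at least 1.2-fold lower, where 0.566% of all genes were. At least 1.2-fold lower were 4 of the 10 with SEMA3E and blocking IgG against control, where 0.844% of all genes were, and 3 of the 10 with SEMA3E against control, where 0.680% were. The sum moved less than these genes, since the bright markers Cdh19, Fabp7 and Apoe had equal values in the blocking IgG and control arrays. Of those 10, 5 were identical in all arrays (74.9% of all genes were), among them the cadherin gene Cdh19. The stepwise order of Crabp1 and Crabp2 was found in 3, against 2.14% of all genes. The marker lists were written with earlier results of these data known, so such counts are a description and nothing follows from them. Gpr37l1, a glial receptor, had 536 units with SEMA3E and blocking IgG, 608 with SEMA3E and 833 in control medium. Kcnj10, a potassium channel, had 273 units with SEMA3E and blocking IgG, 337 with SEMA3E and 399 in control medium. The third was Fbln5, an elastic fibre protein named after its values were seen, and Fabp7, a lipid carrier of glia, was highest with SEMA3E. Unlike Crabp1 and Crabp2, Gpr37l1 and Fbln5 had the wider step for SEMA3E against control (log2 differences -0.45 and -0.28). Their step for blocking IgG against SEMA3E was -0.18 and -0.02. For Kcnj10 the 2 steps were -0.24 and -0.30. Atp1b2, a sodium pump subunit also named after its values were seen, had 183 units in both SEMA3E arrays and 220 in control medium.

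Schwann cell markers summed to 98.8% of control in both SEMA3E media, with the myelin gene Pmp22 at 130696 units in all 3 arrays and the adhesion gene L1cam lowest with SEMA3E. Pmp22 made up most of that sum (145028 units in control medium), so the sum says little of the dimmer markers. Against 74.9% identical and 2.14% stepwise of all genes, 6 of 9 above the floor were identical and 1 had the stepwise order. It was Pmp2, a fatty acid binding protein of myelin from the same protein family as the CRABPs, with 3958 units with SEMA3E and blocking IgG, 4744 with SEMA3E and 5868 in control medium. Fibroblast markers summed to 99.8% of control with SEMA3E and blocking IgG and 100.1% with SEMA3E. The stepwise order was found in 1 of 9 above the floor, against 2.14% of all genes. Dcn, the proteoglycan decorin, read 8988 units in every array, the matrix gene Mgp was lowest in control medium, and Ogn, another proteoglycan, had 861 units with SEMA3E and blocking IgG, 1034 with SEMA3E and 1536 in control medium.

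No endothelial, macrophage or mural marker above the floor had the stepwise order. Only 2.14% of all genes had it, so nothing particular to these cells is read from that. Endothelial markers summed to 98.7% of control in both SEMA3E media, with Emcn and Cdh5 identical and Cldn5 highest in control medium. Macrophage markers summed to 103.6% of control with SEMA3E and blocking IgG and 107.5% with SEMA3E, with the lysozyme genes Lyz1 and Lyz2 highest and Cd68 lowest with SEMA3E. Mural cell markers summed to 106.1% with SEMA3E and blocking IgG and 105.6% with SEMA3E, with Acta2 identical and Tagln lowest in control medium.

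Meningeal fibroblasts and arachnoid cells express Crabp2 and Aldh1a2 in vivo, and their list was included for that reason. Of its 15 markers 9 lay below the floor, namely Slc47a1, Slc22a6, Slc22a8, Slc6a13, Foxd1, Tbx18, Cldn11, Dpp4 and Krt18, and Aldh1a2 lay below it too. Its sum was 88.4% of control with SEMA3E and blocking IgG and 96.0% with SEMA3E, and of the 6 above the floor Alcam and 3 others were identical, while Cdh1 and Foxc1 differed, Foxc1 by a log2 difference of -0.03 with the antibody. Epithelial markers summed to 80.5% of control with SEMA3E and blocking IgG and 93.3% with SEMA3E, and Cdh1, which is in both lists, was 1 of the 2 that differed, with Perp, a desmosome gene, at a log2 difference of -0.04 with the antibody. Of the 12 epithelial markers, Krt5, Krt14, Krt8, Krt18, Epcam, Trp63 and Grhl2 lay below the floor, and Krt19, Cldn4, Dsp, Perp and Cdh1 above it, with Krt19 at 141 units, Cldn4 at 81.1 and Dsp at 60.1 in every array. Cdh1 had 832 units with SEMA3E and blocking IgG, 1062 with SEMA3E and 1184 in control medium. This 1 gene made nearly all of the fall in the meningeal and the epithelial sums. The part of any cell type in the values of Crabp1 and Crabp2 was not tested.

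**Figure D5:**
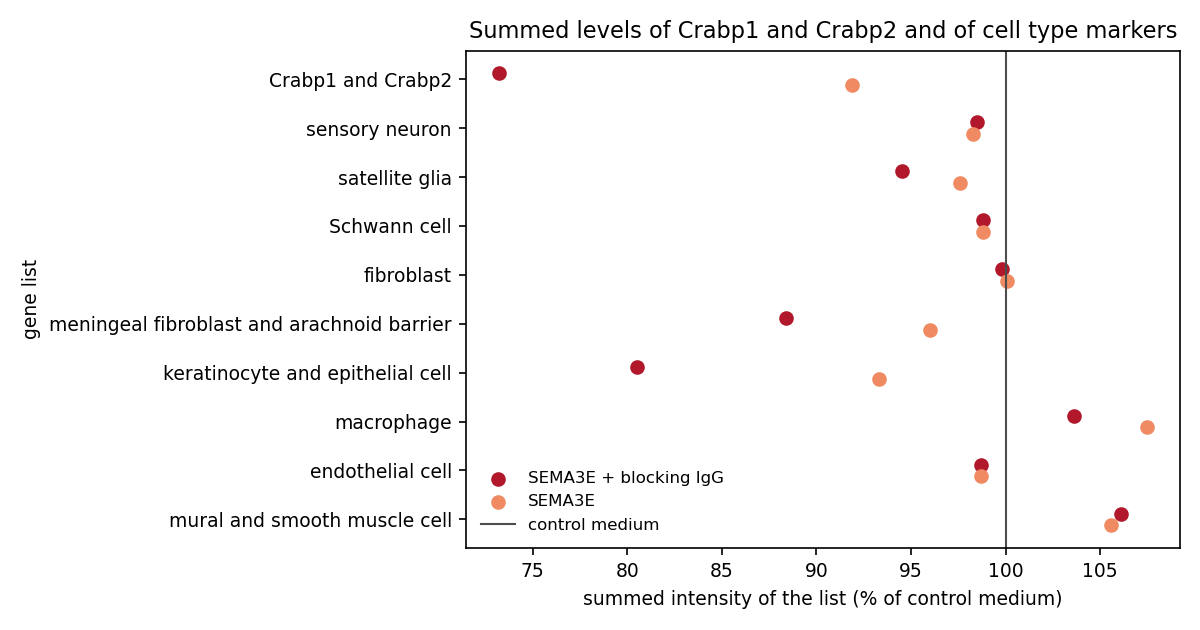
Summed intensity of Crabp1 and Crabp2 and of 9 cell type marker lists, as a percentage of control medium (vertical line at 100), with SEMA3E and blocking IgG and with SEMA3E alone. Crabp1 and Crabp2 lie at 73.2% and 91.9%, and the list nearest to them, epithelial markers at 80.5% and 93.3%, has 5 of 12 markers above the floor. Nearly all of the fall of that list came from Cdh1.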

How the data were processed

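Biotin-labelled RNA was hybridised to 1 array per medium, per the labels' protocols, which name TRIzol, the SV Total RNA Isolation System and the GeneChip WT Pico kit. The deposited intensity values were made by the authors in Affymetrix Expression Console (submitters' processing notes), with version, summary method, normalization and build not given in the sources used here. Log2(intensity + 1) was taken. Of 65956 probe sets 30604 had a single symbol, 2146 several and 33206 none; 827 symbols were updated by gene number with RefSeq (GRCm38.p6). The brightest probe set per gene was kept. The floor is percentile 95 of 492 vomeronasal receptor genes. Promoter windows are those of RefSeq.

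The members and lists were chosen with earlier results of these data known. Named were the 9 members, in each pathway list the 2 brightest genes and any past 1.2-fold, in each marker list brightest and furthest-apart genes, and the 5 nearest patterns, leaving out predicted, clone, small RNA, pseudogene, olfactory, vomeronasal and immune receptor genes. Exceptions are marked, apart from markers named only as above or below the floor, Apoe and Foxc1. Other scalings, offsets, floors and probe set rules were tried. Counting was tested on simulated shifts. Tools were Python 3.11.15, pandas 2.3.3, numpy 2.4.6, statsmodels 0.14.6, scipy 1.17.1 and, for figures, matplotlib 3.10.9.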

Additional observations from a re-analysis of the deposited data

How the results depend on the processing

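The values were recomputed under 6 alternatives: median centring, loess, quantile normalization, an offset of 16 in place of 1, raising values under the floor to it, and averaging all probe sets of a gene. Crabp2 stayed between -0.56 and -0.52 for blocking IgG against SEMA3E, between -0.70 and -0.68 against control, and between -0.15 and -0.14 for SEMA3E against control. Crabp1 stayed between -0.33 and -0.30, between -0.44 and -0.42, and between -0.12 and -0.11. The other 7 members lay between -0.01 and 0.01. Their deposited values were identical, and only quantile normalization moved any of them from 0.00. Centring and the mean of probe sets could not move the members, since the median difference was 0 and each has 1 probe set. Raising values to the floor could not either, since the members below it were identical in all arrays and the rest lay above it. The offset could move genes as bright as Crabp1 and Crabp2 very little. Loess was fitted to genes of which 74.9% were identical in all 3 arrays, so it too had little room to move them. The narrow ranges therefore say little about how firm the differences are. With the offset of 16, the count of other pathway genes at least 1.2-fold lower with blocking IgG than in control was 0 in place of 1, since Rbp4 is dim. The remaining counts of members and pathway genes stayed within 1.5 times their values, also with no floor for the pathway genes. No paired analysis was possible because each medium has 1 array. With 1 array per medium, no spread between cultures is known, and signal near background limits what can be said of the receptors and enzymes.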
